A study of Homo sapiens with 9 samples.

Results

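The long noncoding RNAs NEAT1, LUCAT1, MALAT1 and H19 were followed in human SH-SY5Y neuroblastoma cells exposed to citrinin (CTN), a mycotoxin made by Penicillium and related moulds. They are 4 of the 61487 genes counted, and were selected by name with their values in these libraries already known, so their levels and dose differences are given as a description, without a test. RNA was sequenced after 72 h with vehicle, 10 µM citrinin or 20 µM citrinin, in 3 libraries per group and 9 in all. All cells were kept in the same serum-containing medium. SH-SY5Y is an established line of sympathetic origin, and the labels name no added gene or allele, so the values describe 1 cell line.

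NEAT1 is the RNA on which paraspeckles, nuclear bodies that hold RNA and RNA-binding proteins, are assembled, and it is induced by many cell stresses. MALAT1 is a very abundant nuclear RNA found at nuclear speckles, where splicing factors gather. LUCAT1 was described in cells exposed to cigarette smoke and is known as a target of the transcription factor NRF2, which drives antioxidant genes through antioxidant response elements. H19 is an imprinted RNA of fetal growth control, transcribed from the maternal copy beside IGF2, and it is the host of the microRNA miR-675.

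Libraries held 15678443 to 19604367 reads assigned to genes, and levels are CPM, a gene's reads relative to the library total, scaled with TMM factors. Differences are log2 fold changes from edgeR's quasi-likelihood fit of 17806 genes in all 9 libraries. The standard error (SE) given beside each is its absolute value divided by the square root of the test's F statistic. Libraries of the same replicate number deviated together, so the replicate number entered that fit as a block, and a gene other than the 4 is said to have risen or fallen when its Benjamini-Hochberg adjusted p was below 0.05 there. With the block, 2.21% of tested genes passed at 20 µM against vehicle, 0.0337% at 10 µM against vehicle and 0.444% at 20 µM against 10 µM. The planned fit without the block called 0 genes (0.0%) in each comparison. At an unadjusted p below 0.05 it held 387, 115 and 210 genes in that order of comparisons, and DESeq2 without the block called 11, 0 and 0. Groups of 3 libraries did not overlap for 6.76%, 4.0% and 4.87% of tested genes in the same order. Of the sympathetic marker genes, 9 of 10 were tested, and TH averaged 0.0200 CPM, so the line's labelled type stood on the other markers.

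On the GRCh38 genome and GENCODE 29, NEAT1 (ENSG00000245532) lies at chr11:65422774-65445540 on the plus strand, and its gene-level count does not separate its short and long isoforms. NEAT1 had 474, 532 and 663 CPM in vehicle replicates 1, 2 and 3. It had 539, 692 and 726 CPM at 10 µM and 614, 739 and 813 CPM at 20 µM. Replicate 1 was the lowest and replicate 3 the highest library in every group, and the groups overlapped. Within each replicate number the order was vehicle, then 10 µM, then 20 µM. The mean was 722 ± 101 CPM at 20 µM, against 556 ± 96.6 CPM in vehicle (SD, n = 3 each). The log2 difference was 0.38 ± 0.05 (SE), a 1.30-fold higher level, and 3 of 3 pairs were higher. At 10 µM against vehicle it was 0.23 ± 0.05 and at 20 µM against 10 µM 0.15 ± 0.05, each again with 3 of 3 pairs higher. In bulk RNA, more or fewer expressing cells and more or less RNA per cell cannot be told apart.

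MALAT1 (ENSG00000251562) lies 52.1 kb from NEAT1, at chr11:65497688-65506516 on the same strand. MALAT1 had 556, 495 and 550 CPM in vehicle replicates 1, 2 and 3. It had 572, 469 and 531 CPM at 10 µM and 496, 441 and 471 CPM at 20 µM. Replicate 2 was the lowest and replicate 1 the highest library in each group, and the 20 µM libraries overlapped the vehicle range by a small margin. The mean was 469.6 ± 27.3 CPM at 20 µM, against 534 ± 33.4 CPM in vehicle (SD, n = 3 each). The log2 difference was -0.19 ± 0.04 (SE), with 0 of 3 pairs higher. Between 10 µM and vehicle it was -0.03 ± 0.04, with 1 of 3 pairs higher, and between 20 µM and 10 µM -0.15 ± 0.04, with 0 of 3 pairs higher.

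The ratio of NEAT1 to MALAT1 CPM within a library restates the values of both RNAs on a scale that does not depend on library scaling, and a higher ratio alone does not show which RNA differed. The ratio was 0.853, 1.07 and 1.20 in vehicle replicates 1, 2 and 3. It was 0.943, 1.48 and 1.37 at 10 µM and 1.24, 1.67 and 1.73 at 20 µM. All 3 libraries at 20 µM stood above all 3 vehicle libraries by a small margin, 1.24 against 1.20, while the 10 µM libraries overlapped both. Both RNAs were picked with their values known, and the share of other gene ratios that separate was not taken, so this is a description only. The mean ratio was 1.55 ± 0.268 at 20 µM, against 1.04 ± 0.178 in vehicle (SD, n = 3 each).

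**Figure D1:**
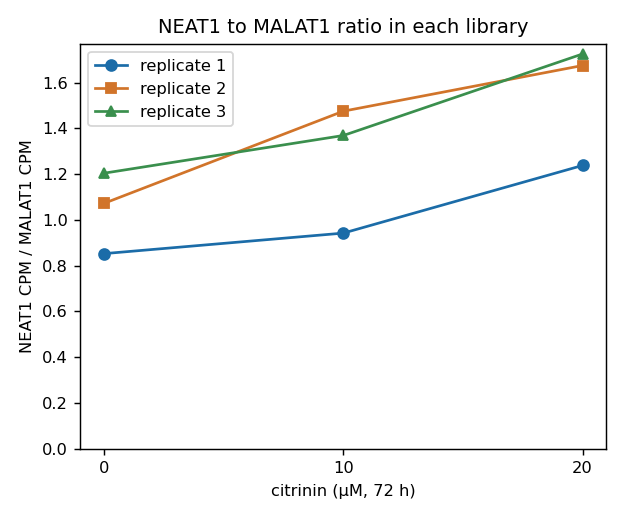
Ratio of NEAT1 CPM to MALAT1 CPM (vertical axis, from 0) against citrinin dose in µM, with one line for each replicate number. Within each replicate number the 20 µM ratio is the highest, and all 3 ratios at 20 µM, from 1.24 to 1.73, lie above the vehicle ratios, from 0.853 to 1.20.

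LUCAT1 (ENSG00000248323) is on chromosome 5, at chr5:91054834-91314547 on the minus strand in GENCODE 29, where its span overlaps the 3' part of the adhesion receptor gene ADGRV1 on the other strand. LUCAT1 had 3.45, 6.82 and 4.41 CPM in vehicle replicates 1, 2 and 3. It had 4.91, 11.1 and 7.52 CPM at 10 µM and 8.57, 14.0 and 9.20 CPM at 20 µM. Replicate 2 was the highest and replicate 1 the lowest library in each group. Every 20 µM library was above every vehicle library, the single non-overlapping case among the 4 RNAs in that comparison, where 6.76% of all tested genes did not overlap. In the comparisons of 10 µM with vehicle (4.0% of all tested genes) and of 20 µM with 10 µM (4.87%) it was 0 of the 4 RNAs. The mean was 10.6 ± 2.99 CPM at 20 µM, against 4.89 ± 1.73 CPM in vehicle (SD, n = 3 each). The log2 difference was 1.13 ± 0.14 (SE), 2.18-fold, with 3 of 3 pairs higher. It was 0.67 ± 0.15 at 10 µM against vehicle and 0.45 ± 0.14 at 20 µM against 10 µM, with 3 of 3 pairs higher in both. LUCAT1 rested on few reads, 59 to 245 per library, so its fold is less precisely known than that of NEAT1.

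Start regions are shown for LUCAT1 and MALAT1, because these RNAs differed in opposite directions and the letters bound by stress-responsive factors can be compared. RefSeq (GRCh38.p14) windows run from 250 bases before to 50 after a start. Motifs were searched on both strands: the antioxidant response core TGACNNNGC, in 13.3% of 35116 promoters, AP-1 TGANTCA (7.71%), the heat shock element GAANNTTC (6.77%), the E-box CACGTG (7.26%) and TATAAA (11.5%). Capitals mark matches: in LUCAT1 the antioxidant core read on the opposite strand, whose last 7 letters are also the AP-1 match, in the first MALAT1 start 2 antioxidant cores, and in the second MALAT1 start TATAAA. The windows are chr5:91314353-91314652 (minus), chr11:65497488-65497787 (plus) and chr11:65498795-65499094 (plus).
LUCAT1: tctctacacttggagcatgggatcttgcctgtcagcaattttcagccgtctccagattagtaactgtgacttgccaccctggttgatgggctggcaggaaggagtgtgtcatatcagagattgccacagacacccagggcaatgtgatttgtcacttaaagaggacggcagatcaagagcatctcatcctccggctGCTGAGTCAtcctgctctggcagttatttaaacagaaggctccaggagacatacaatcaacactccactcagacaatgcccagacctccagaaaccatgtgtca
MALAT1 start 1: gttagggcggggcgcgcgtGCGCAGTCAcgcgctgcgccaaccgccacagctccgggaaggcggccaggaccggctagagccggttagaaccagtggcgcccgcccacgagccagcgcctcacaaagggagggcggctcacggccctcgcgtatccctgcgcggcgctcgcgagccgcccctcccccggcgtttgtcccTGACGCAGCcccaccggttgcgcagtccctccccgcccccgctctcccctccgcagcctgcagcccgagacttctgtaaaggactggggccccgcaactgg
MALAT1 start 2: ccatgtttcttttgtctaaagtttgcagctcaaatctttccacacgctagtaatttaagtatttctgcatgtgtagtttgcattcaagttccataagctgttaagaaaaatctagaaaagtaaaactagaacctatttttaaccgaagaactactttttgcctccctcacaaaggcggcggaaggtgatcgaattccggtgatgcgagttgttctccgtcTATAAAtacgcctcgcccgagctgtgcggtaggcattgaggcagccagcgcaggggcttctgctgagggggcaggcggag
The LUCAT1 antioxidant match begins 54 bases before the start, and in MALAT1 start 1 the nearer match begins 51 bases before it. H19 held none of the 5 motifs in its window. A match describes letters only, and elements outside the windows were not searched. Of 7 NRF2 target genes with a window, 3 hold the core. The part of these motifs in the RNAs' differences was not tested. LUCAT1 had 3 CpG, MALAT1 37 and 14 at its starts and H19 6, against a median of 14.

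H19 (ENSG00000130600) lies at chr11:1995176-2001470 on the minus strand. H19 had 114, 21.9 and 34.3 CPM in vehicle replicates 1, 2 and 3. It had 111, 21.0 and 32.9 CPM at 10 µM and 106, 18.0 and 28.2 CPM at 20 µM. Replicate 1 held far more H19 than the other libraries at every dose: 5.23 times replicate 2 in vehicle, 5.27 times at 10 µM and 5.90 times at 20 µM. The mean was 50.8 ± 48.2 CPM at 20 µM, against 56.8 ± 50.2 CPM in vehicle (SD, n = 3 each), so the spread between replicate numbers was far larger than the dose difference. Within pairs H19 was lower in 3 of 3 at each step. The log2 difference was -0.20 ± 0.07 (SE) at 20 µM against vehicle, -0.05 ± 0.06 at 10 µM against vehicle and -0.15 ± 0.07 at 20 µM against 10 µM. Reads that also overlap another gene are set aside as ambiguous, and adding the counts of each strand gave 1.53 to 1.65 times the H19 reads of the joint count, against about 1 for the other 3 RNAs. IGF2, the neighbour of H19 in the imprinted cluster, had 0.398 to 4.86 CPM over the 9 libraries.

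H19 also hosts miR-675, which these libraries do not measure. Its mature forms are given with the seed, bases 2 to 8, in capitals.
miR-675-5p: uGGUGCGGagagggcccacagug
miR-675-3p: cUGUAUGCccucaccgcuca
The seeds differ between the arms.

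**Figure D2:**
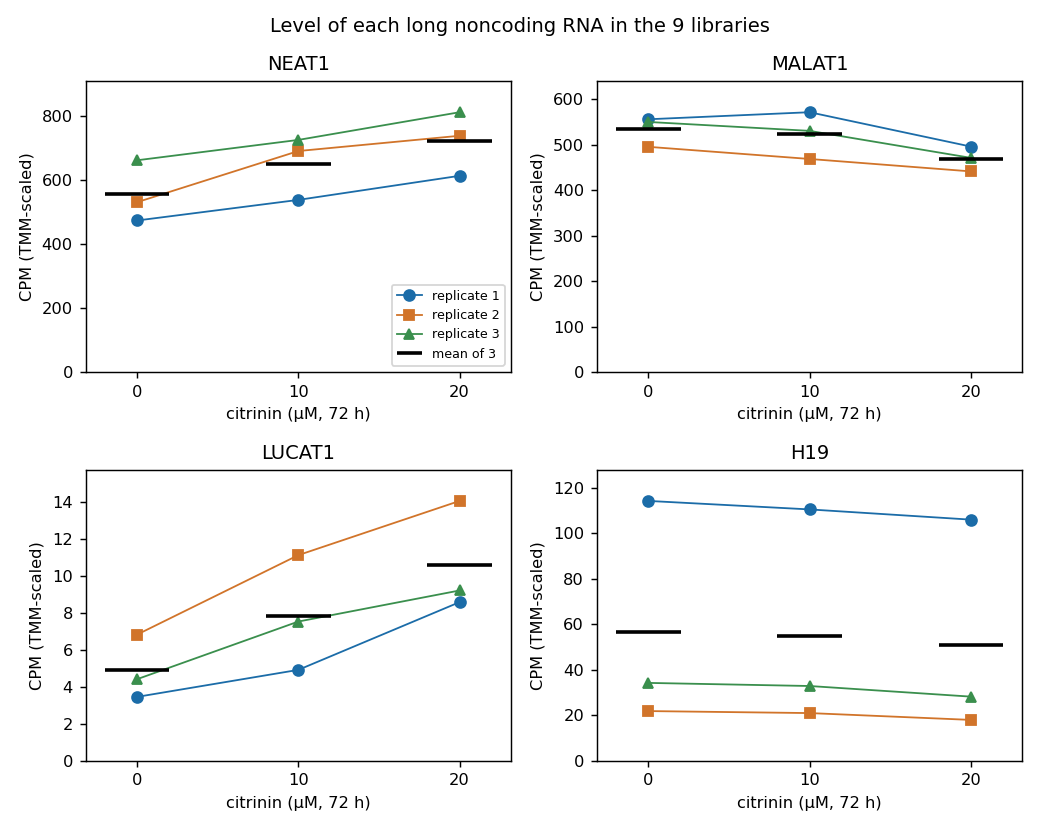
CPM (vertical axis, from 0) of NEAT1, MALAT1, LUCAT1 and H19 against citrinin dose in µM after 72 h, with one line for each replicate number and a black bar for the mean of 3 libraries. The lines of NEAT1 and LUCAT1 climb with dose in all 3 replicate numbers, while H19 separates by replicate number, from 18.0 to 114 CPM.

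Differences past the threshold at 20 µM against vehicle were found for 3 of the 4 RNAs, beside 2.21% of all tested genes, and for 0 of 4 in the other comparisons. These counts restate how the RNAs were picked. MALAT1 was among the 3, but was no longer past the threshold without any single vehicle library, 10 µM replicate 3 or 20 µM replicate 3, at log2 values between -0.21 and -0.16 over all fits with the block. With the block left out the SE at 20 µM against vehicle was 0.16 for NEAT1, 0.35 for LUCAT1, 0.10 for MALAT1 and 0.94 for H19, and 0 of 4 were past the threshold.

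**Figure D3:**
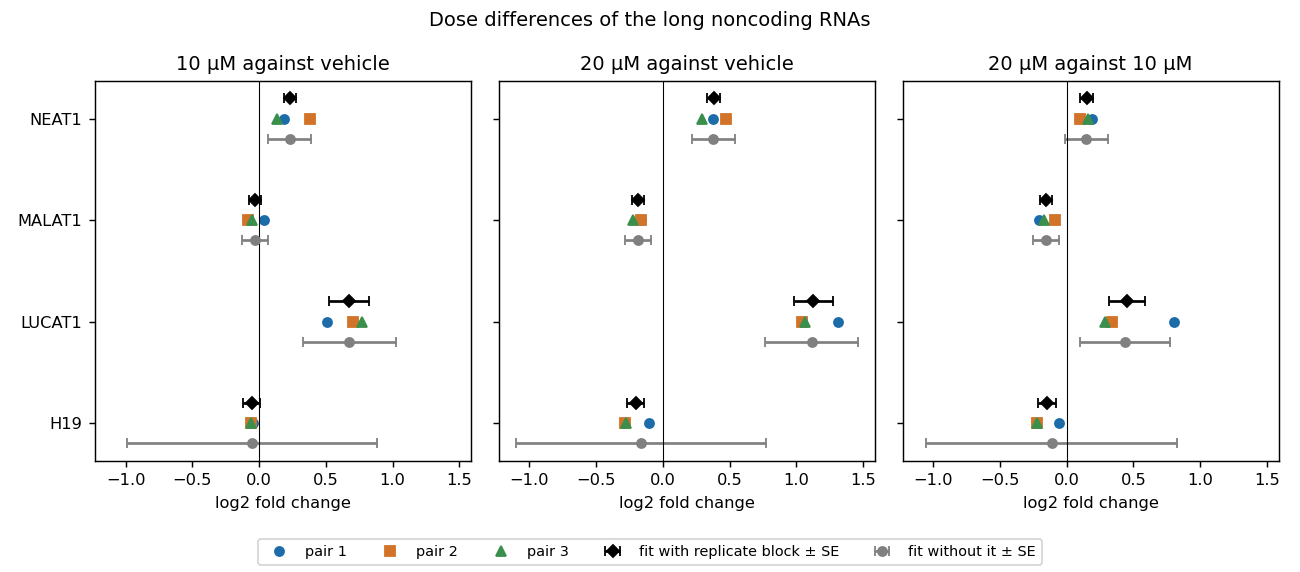
Log2 fold change (horizontal axis) of each RNA in the 3 comparisons: coloured points are the pairs of the same replicate number, black diamonds the fit with the replicate block and grey circles the fit without it, with bars of 1 SE. For H19 the SE at 20 µM against vehicle is 0.07 with the block and 0.94 without it.

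Sums of squares of log2 CPM were split between dose and replicate number. The RNAs were picked with their values known, so their shares are a description and no test against other genes. Dose took 41.5% for NEAT1, 44.7% for MALAT1 and 56.9% for LUCAT1, against a median of 11.4% over all tested genes. For H19 dose took 0.831% and replicate number 99.0%, against a median of 55.0% for replicate number over all tested genes. The replicate shares of NEAT1 (55.0%), MALAT1 (50.9%) and LUCAT1 (40.8%) were near or below that median.

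Levels between genes were compared per kilobase of exon. In vehicle MALAT1 had 60.5 ± 3.78 CPM per kb, NEAT1 24.4 ± 4.24, H19 19.6 ± 17.3 and LUCAT1 0.296 ± 0.105 (SD, n = 3 each). The place of H19 rested on vehicle replicate 1: it had 39.5, 7.55 and 11.8 CPM per kb in replicates 1, 2 and 3, against 20.8, 23.3 and 29.1 for NEAT1, so it was above NEAT1 in replicate 1 and below it in the other libraries. The joint count also leaves out part of the H19 reads. MALAT1 stood above all 3 others and LUCAT1 below them in every vehicle library. MALAT1 ranked 460 and LUCAT1 16062 of 17412 genes with a length. That length joins all annotated exons, 22767 bases for NEAT1 and 16538 for LUCAT1, and the order of the RNAs depends on this choice. Gene-level counts do not separate isoforms, so where shorter ones give the reads, levels per kb and ranks are set too low. MALAT1 and the long form of NEAT1 end without a usual poly(A) tail, so their levels depend on how RNA was selected, which the labels do not give. Of 12 RNAs without such tails that were looked up, 10 had no read in any library. Over all 61487 genes, 36838 had a read. Counts leave out ambiguous reads and reads at several places, so a count of 0 does not by itself show how RNA was selected.

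Genes whose centred log2 CPM came nearest to each RNA over the 9 libraries were looked up among 13828 genes averaging at least 2 CPM, by root mean square (RMS) difference. Nearest to NEAT1 was SQSTM1, which encodes the autophagy receptor p62, at 0.07 log2 units, against a spread of 0.24 for NEAT1 itself. After removing the mean of each replicate number PAQR6 was nearest, and FTL, the ferritin light chain, followed. LUCAT1 was nearest to H3C6, GCLM and NQO1, and with replicate means removed to OSGIN1 at 0.09, NQO1 at 0.11 and IL15RA at 0.15, against its own 0.47. MALAT1 was nearest to AUTS2, and then to TBX3 with replicate means removed. With replicate means removed the nearest gene to H19 was IRF2BP2.

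The paraspeckle proteins that sit with NEAT1 did not pass in any comparison: 0 of 34 rose and 0 fell. Without 10 µM replicate 1, 1 rose and 1 fell at 20 µM against vehicle, and the same without 10 µM replicate 2. Without 20 µM replicate 1, 1 fell in that comparison. The median log2 difference of the 34 at 20 µM against vehicle was -0.04, against 0.00 over all tested genes. Of the 34, 9 were at positive and 25 at negative values. The nuclear speckle and splicing proteins that sit with MALAT1 (28 tested) gave 0 rising and 0 falling in all comparisons. The processing and m6A machinery of MALAT1 (13 tested) did too, and both medians at 20 µM against vehicle were -0.03. Of the 28, the count falling at 20 µM against vehicle was 2 without 10 µM replicate 1 and 3 without 10 µM replicate 2. At 20 µM against 10 µM it was 2 without 10 µM replicate 2. SRRM1, a splicing coactivator, was 138.7 ± 9.13 CPM at 20 µM and 156 ± 4.94 CPM in vehicle, with an adjusted p of 0.0905 by edgeR. LUC7L3, another splicing factor, was 484 ± 34.0 CPM at 20 µM and 540.2 ± 38.5 CPM in vehicle, with an adjusted p of 0.0774 by edgeR. RBM3, a cold-shock RNA-binding protein of the paraspeckle list, was 135.5 ± 11.01 CPM at 20 µM and 120.1 ± 7.11 CPM in vehicle, with an adjusted p of 0.0678 by edgeR. CPSF6, a cleavage factor subunit of the same list and named after its values were seen, was 145 ± 5.68 CPM at 20 µM and 163 ± 10.4 CPM in vehicle, with an adjusted p of 0.0682 by edgeR. MATR3 is annotated under more than 1 identifier and its count is uncertain.

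Among 31 other long noncoding RNAs tested, of 43 listed, 1 rose and 1 fell at 20 µM against vehicle, and 0 changed in the other comparisons. CYTOR rose to 14.0 ± 3.24 CPM at 20 µM, against 9.93 ± 2.97 CPM in vehicle, log2 0.50 ± 0.12 with adjusted p = 0.0261 (edgeR). LINC01116 fell to 18.3 ± 6.33 CPM at 20 µM, against 26.4 ± 10.4 CPM in vehicle, log2 -0.52 ± 0.10 with adjusted p = 0.00186 (edgeR). Leaving out vehicle replicate 2 or 3 or 20 µM replicate 3 ended both calls, as did 10 µM replicate 3 and 20 µM replicate 2 for CYTOR. With whole replicate numbers left out as well, the adjusted p of the fits that missed the threshold (edgeR) lay between 0.0576 and 0.431 for CYTOR and between 0.0579 and 0.315 for LINC01116. Reads of CYTOR may be split with its close paralog MIR4435-2HG, so its count is uncertain. NORAD, GAS5 and TUG1, abundant RNAs of this list, differed by 0.01, -0.02 and -0.11 and did not pass.

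Of 19 imprinted genes tested beside H19, 1 fell and 0 rose at 20 µM against vehicle. PEG10, a retrotransposon-derived paternally expressed gene, fell to 224 ± 13.1 CPM at 20 µM, against 294 ± 21.6 CPM in vehicle, log2 -0.40 ± 0.04 with adjusted p = 2.97e-06 (edgeR). It was also lower at 20 µM than at 10 µM, log2 -0.25 ± 0.04 with adjusted p = 0.00506 (edgeR). The latter call ended without 10 µM replicate 3, 20 µM replicate 3 or all of replicate 3. Of 11 H19 partners and let-7 axis genes tested, TGFBI, a secreted matrix protein, rose by log2 0.41 ± 0.09 at 20 µM against vehicle, adjusted p = 0.0136 (edgeR). That call ended without any single vehicle library, 20 µM replicate 3 or all of replicate 3, with adjusted p between 0.0722 and 0.563 (edgeR).

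Of 18 genes reported to regulate these RNAs, 1 fell and 0 rose. SP1, a general transcription factor, fell by 0.23 on the log2 scale (SE 0.05, adjusted p = 0.00745 by edgeR) at 20 µM against vehicle. The call ended without vehicle replicate 2, 20 µM replicate 3, all of replicate 2 or all of replicate 3. NFE2L2, which encodes NRF2, and its inhibitor KEAP1 did not pass at 20 µM against vehicle, at log2 0.13 ± 0.06 and 0.18 ± 0.07. Of 10 NRF2 target genes 8 rose at 20 µM against vehicle, 5 at 10 µM against vehicle and 6 at 20 µM against 10 µM, and 0 fell, with a median of 0.96 at 20 µM against vehicle; this list was chosen with such results known. With single libraries left out the count was 7 or 8 at 20 µM against vehicle. At 10 µM against vehicle it was 2 without any single vehicle library or 10 µM replicate 3 and 3 without 20 µM replicate 3, and at 20 µM against 10 µM it was 3 without 10 µM replicate 3. Without all of replicate 3, 0 of all tested genes were called in either of these comparisons.

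**Figure D4:**
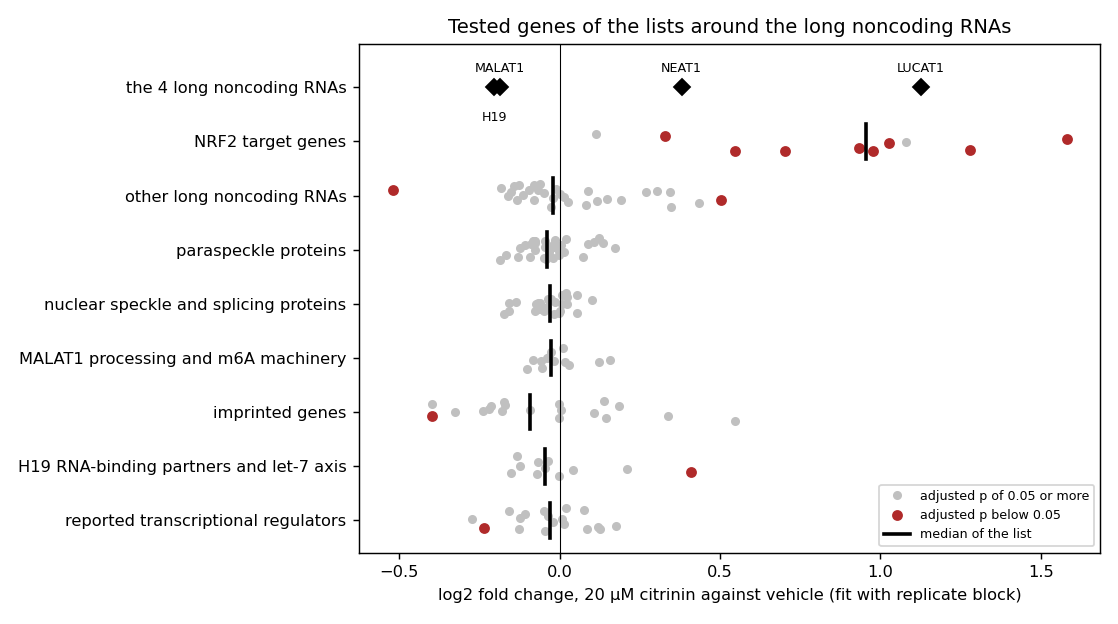
Log2 fold change at 20 µM citrinin against vehicle in the fit with the replicate block (horizontal axis) for the tested genes of each list, red where the adjusted p was below 0.05, with a black line at each list's median. The 4 RNAs stand at the top as black diamonds, from -0.20 for H19 to 1.13 for LUCAT1, and vertical position within a list has no meaning.

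Within 100 kb of the RNAs, 8 genes were tested around NEAT1, 10 around MALAT1, 3 around LUCAT1 and 2 around H19. None of them rose or fell in any comparison with the block, apart from NEAT1 and MALAT1, which are neighbours of each other. FRMD8, 9.25 kb from NEAT1, differed by 0.17 ± 0.09 at 20 µM against vehicle with adjusted p = 0.447 (edgeR). ADGRV1, which overlaps the LUCAT1 span, differed by -0.13 ± 0.10 with adjusted p = 0.636 (edgeR). MRPL23, 10.7 kb from H19 in GENCODE 29, differed by 0.08 ± 0.12 with adjusted p = 0.834 (edgeR). In RefSeq, MRPL23 spans chr11:1947332-2014944 and so overlaps H19. The annotation used for counting is not given, so the joint counts of MRPL23 and H19 may leave out shared reads. Whether the ambiguous H19 reads come from this overlap was not tested.

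Markers of cell types were read beside the RNAs. Of 9 sympathetic neuroblast markers tested 6 fell and 0 rose at 20 µM against vehicle, and their summed level was 2349 to 3326 CPM at 20 µM, against 2805 to 3614 CPM in vehicle. The count was 2 without any single vehicle library, 10 µM replicate 3, 20 µM replicate 2 or 20 µM replicate 3. Without all of replicate 3, none of CHGA, STMN2, DBH, GATA2 and PHOX2A passed, at adjusted p of 0.120 for CHGA and 0.218 for STMN2 (edgeR). Of 10 markers of mesenchymal-type neuroblastoma cells 3 rose and 0 fell, with sums of 5269 to 7195 CPM at 20 µM, against 4808 to 6825 CPM in vehicle. Their median log2 difference was 0.01, with 5 of 10 at positive and 5 at negative values, and in replicate 1 the sum was lower at 20 µM, 6382 CPM, against 6624 CPM in vehicle. CD44 was the 1 marker that still rose without vehicle replicate 1 or without vehicle replicate 2, and 2 rose without vehicle replicate 3, 10 µM replicate 3, 20 µM replicate 2 or 20 µM replicate 3. Without all of replicate 3, CD44 still rose, while VIM and YAP1 did not pass. Schwann and glial markers summed to 9.16 to 9.94 CPM at 20 µM, against 6.55 to 10.0 CPM in vehicle, with SOX10 at 0.280 and GFAP at 0.396 CPM on average. The part of these markers in the RNAs' differences was not tested.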

How the data were processed

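RNA of 9 SH-SY5Y libraries was sequenced, and groups and replicate numbers come from the sample titles. Reads were handled with FastQC, cutadapt, STAR and edgeR on GRCh38, per the submitters' processing notes, and no version or annotation release is given. The authors deposited raw counts per gene, for both strands together and for each strand; strands were near equal (ratio 1.007 to 1.020), so the joint count was used and antisense reads cannot be told apart. Unmapped reads (2.86% to 3.62%), reads at several places (2.22% to 2.61%), reads outside genes (6.75% to 7.98%) and ambiguous reads (9.51% to 10.1%) were left out. A deposited table of normalized values was not used here.

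As planned, genes passing filterByExpr were fitted with TMM scaling by the robust quasi-likelihood method of edgeR 4.0.16 (limma 3.58.1, R 4.3.3) without covariates, and the code was tested on simulated data. The alternative adds the replicate number as a block. Deviations from group means correlated at r = 0.428 to 0.662 between same-numbered libraries (9 pairs) and -0.526 to 0.114 between others (18 pairs), with the limit at 0.1, so the numbers, taken from the titles, were taken to pair the samples. Whether replicates came from separate cultures is not in the labels, and p-values then cover only the spread between these samples, possibly technical.

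Other alternatives were RLE size factors, no low-count filter, DESeq2 1.42.0, summed strand counts, and leaving out libraries. Members and gene lists were chosen with earlier results of these data known. The named genes are the 4 RNAs, tested genes within 100 kb, per list up to 4 passing genes of smallest p (or the 2 of largest change), and the 3 genes of nearest pattern; some are given as counts only or not reported here, and NORAD, GAS5, TUG1, NFE2L2, KEAP1 and IGF2 were added after their values were seen. Of 219 list symbols 216 matched; a symbol with several identifiers took the one with most reads. Coordinates and lengths are from GENCODE 29, and sequences from RefSeq on GRCh38.p14, where start regions matched 3 of the 4 RNAs.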

Additional observations from a re-analysis of the deposited data

How the results depend on the processing

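With the replicate block, NEAT1 and LUCAT1 at 20 µM against vehicle passed in 17 of 17 fits, at log2 0.32 to 0.43 and 1.01 to 1.19. MALAT1 passed in 11 of 17 (-0.21 to -0.16), not without any single vehicle library, 10 µM replicate 3, 20 µM replicate 3 or all of replicate 3. H19 passed in 2 of 17 (-0.28 to -0.17), with summed strand counts and without 20 µM replicate 1. The 4 RNAs were picked with their values known and the fits share libraries, so these counts are a description and no test. The cause of the differences between fits was not tested. Without the block none of the 4 passed in 14 fits, and the H19 value ran from -1.30 to 0.85 as libraries were left out. The number of genes called at 20 µM against vehicle, 0 as planned, was 393 with the replicate block, 399 with RLE and the block, 6 without the low-count filter and 560 with the block added, 11 with DESeq2 and 267 with DESeq2 and the block, and 407 with summed strand counts and the block. At 10 µM against vehicle the blocked counts were 6, 6 with RLE, 23 without the filter, 6 with DESeq2 and 7 with summed strands, and at 20 µM against 10 µM 79, 79, 188, 62 and 89 in the same order. Leaving out libraries gave 0 to 729 genes at 20 µM against vehicle, 0 to 16 at 10 µM against vehicle and 0 to 301 at 20 µM against 10 µM; with the block, leaving out 1 library gave 96 (without vehicle replicate 2) to 729 (without 10 µM replicate 2) in the first. Depth limits LUCAT1 most, with 59 reads in its lowest library.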

Other observations

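Long noncoding RNAs as a GENCODE 29 class, a grouping chosen after the values were seen, made up 2515 of the tested genes. With the replicate block 6 were higher and 6 lower at 20 µM against vehicle, 0.477% of the class, against 378 of 13728 protein-coding genes, 2.75%. Median levels were 1.40 CPM for the class and 30.3 CPM for protein-coding genes; the part of level in this difference was not tested. Beside LUCAT1, NEAT1 and CYTOR the higher ones were DLGAP1-AS2 (8.68 CPM at 20 µM, 5.49 CPM in vehicle), MIR4435-2HG (23.0 and 17.9 CPM) and LINC01963 (41.0 and 33.1 CPM). Beside MALAT1 and LINC01116 the lower ones were STARD4-AS1 (29.4 CPM at 20 µM, 36.0 CPM in vehicle), ISL1-DT (67.1 and 81.8 CPM), LINC00682 (19.1 and 24.4 CPM) and AC016717.2 (3.57 and 6.07 CPM). By edgeR the adjusted p was 0.0317 for LINC00682, 0.0321 for LINC01963, 0.0327 for MIR4435-2HG, 0.0334 for AC016717.2 and 0.0491 for STARD4-AS1. It was 0.0120 for DLGAP1-AS2 and 0.00241 for ISL1-DT (edgeR). Whether these calls hold with libraries left out is not reported here. CYTOR and MIR4435-2HG are close paralogs, so the split of reads between them is uncertain.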
